A study of Mus musculus with 6 samples.

Results

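The 100 features most specific to Vip+ neurons of the mouse suprachiasmatic nucleus (SCN), out of 32285 rows of the count matrices, were followed back from PND10 and PND30 to GD17.5 and PND2. The features were chosen by their summed UMIs in the annotated nuclei of PND10 and PND30. Rows were taken with at least 50 UMIs per 1000000 UMIs of the cluster (CPM) in the Vip+ cluster, which left 3792, and were ordered by the ratio of CPM + 5 in Vip+ neurons over the highest of the 8 other clusters compared. The 100 highest ratios make up the set, and each feature is called here by its rank in that ratio, since the count matrices used here carried no feature names. For the same reason the name Vip+ could not be checked against Vip counts and was taken from the deposited annotation.

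VIP neurons form the ventral, or core, part of the SCN, where axons from the retina end. They release vasoactive intestinal polypeptide, which acts on the VPAC2 receptor of other SCN neurons and helps to keep their clocks in step. In rodents the SCN neurons are born before birth, while much of their synaptic input forms in the first postnatal weeks.

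Nuclei came from SCN tissue of wild-type C57BL6/J mice with no treatment, pooled from several animals of both sexes at each stage, and were captured in droplets that tag the 3′ ends of RNA. There was 1 library at gestational day 17.5 (GD17.5), 1 at postnatal day 2 (PND2), 2 at PND10 and 2 at PND30. The study's methods describe a pool of animals per stage and a repeat of the library step at the later stages, so the 2 libraries of PND10 or PND30 may share a pool and the p-values below measure the spread between libraries, which may be technical. The authors annotated 22796 nuclei in 13 clusters, and 22790 of them could be placed in 1 library. The Vip+ cluster held 236 GD17.5 nuclei and 1262 PND2 nuclei. At PND10 it held 130 in replicate 1 and 859 in replicate 2, and at PND30 109 and 871. A cluster of early SCN neurons, which the annotation names only SCN neurons, held 4048 nuclei at GD17.5 and 3315 at PND2. Vip+ nuclei had a median of 3397 to 13026 UMIs per library, and at both later stages replicate 1 held fewer and deeper nuclei than replicate 2. Pairs of libraries shared 0 to 9 annotated barcodes.

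The values that chose the features are a description only. The ratio over the next cluster was 2 or more for 26 features, 3 or more for 11 and 5 or more for 3. The median was 1.55, so most of the set was graded between clusters rather than restricted to Vip+ neurons. The next cluster was the extra-SCN neurons for 34 features and Nms+ neurons for 31, against 7 for Cck+ and 6 for Avp+ neurons. It was non-neuronal for the others, with 7 for mature astrocytes, 7 for NG2 cells, 4 for microglia and 4 for mature oligodendrocytes. Nms+ nuclei came almost wholly from PND30 replicate 2, which held 657 of them. At the limit of the choice, ranks 98, 99 and 100 each had a ratio of 1.29, and the next 3 ranks, just outside, each had 1.28. In the single libraries, Vip+ was the highest cluster of at least 20 nuclei for 96 and 90 of the features at PND10. Of all features at 50 CPM or more it was the highest for 14.6% and 8.13%, with 6 and 7 other clusters to compare. At PND30 it was the highest for 96 and 95, beside 20.1% and 10.4%, with 4 and 8 other clusters. At 50 CPM or more in the library, the set gave 91 of 93 and 85 of 93 at PND10. At PND30 it gave 94 of 97 and 94 of 98. For 80 features Vip+ was the highest in all 4 libraries. Only PND30 replicate 2 had at least 20 Nms+ nuclei.

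The set as a whole took up a small and similar share of RNA in Vip+ and early SCN neurons at GD17.5, and a much larger share in Vip+ neurons from PND10 on. The 100 features summed to 3.95% of UMIs in Vip+ neurons at GD17.5 and 4.64% at PND2. In the later Vip+ libraries they summed to 7.73% and 7.38% at PND10 and to 8.30% and 8.01% at PND30, the stages on which they were chosen. Early SCN neurons stood at 3.65% at GD17.5 and 3.85% at PND2. The ratio of Vip+ over early neurons was therefore 1.08 at GD17.5 (exact 95% interval 1.07 to 1.09, counting error only) and 1.21 at PND2 (1.20 to 1.21). At GD17.5 the ratio of the clusters' median CPM over the features was 0.978, in place of 1.08. The median of the ratios per feature was 1.04. The direction of the difference between the clusters before birth thus depended on the summary used. Avp+ neurons, the other large SCN neuron cluster, stood at 3.41% and 2.66% at PND10 and at 2.31% and 2.40% at PND30.

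Single nuclei gave the same picture when each was thinned to 1500 UMIs. The median share of UMIs from the set in a Vip+ nucleus was 3.37% at GD17.5 and 4.00% at PND2. It was 7.87% and 7.33% in the PND10 replicates, and 8.73% and 8.0% in those of PND30. In early SCN neurons it was 3.27% and 3.40%, and 48.3% of early nuclei at GD17.5 and 33.8% at PND2 lay at or above the Vip+ median of their library. PND2 Vip+ nuclei were spread widely, with quartiles of 2.87% and 5.87%. Nuclei with at least 5% of UMIs from the set made up 19.5% of Vip+ nuclei at GD17.5 (exact 95% binomial interval 14.6 to 25.1) and 36.3% at PND2 (33.6 to 39.0), beside 14.6% and 15.99% of early nuclei. From PND10 on this share was 81.1% to 99.1% of Vip+ nuclei by library and 2.87% to 9.65% of Avp+ nuclei. A Vip+ nucleus held a UMI from a median of 21 of the 100 features at GD17.5, 24 at PND2 and 37 to 40 later, and an early nucleus from 19 and 21.

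**Figure D1:**
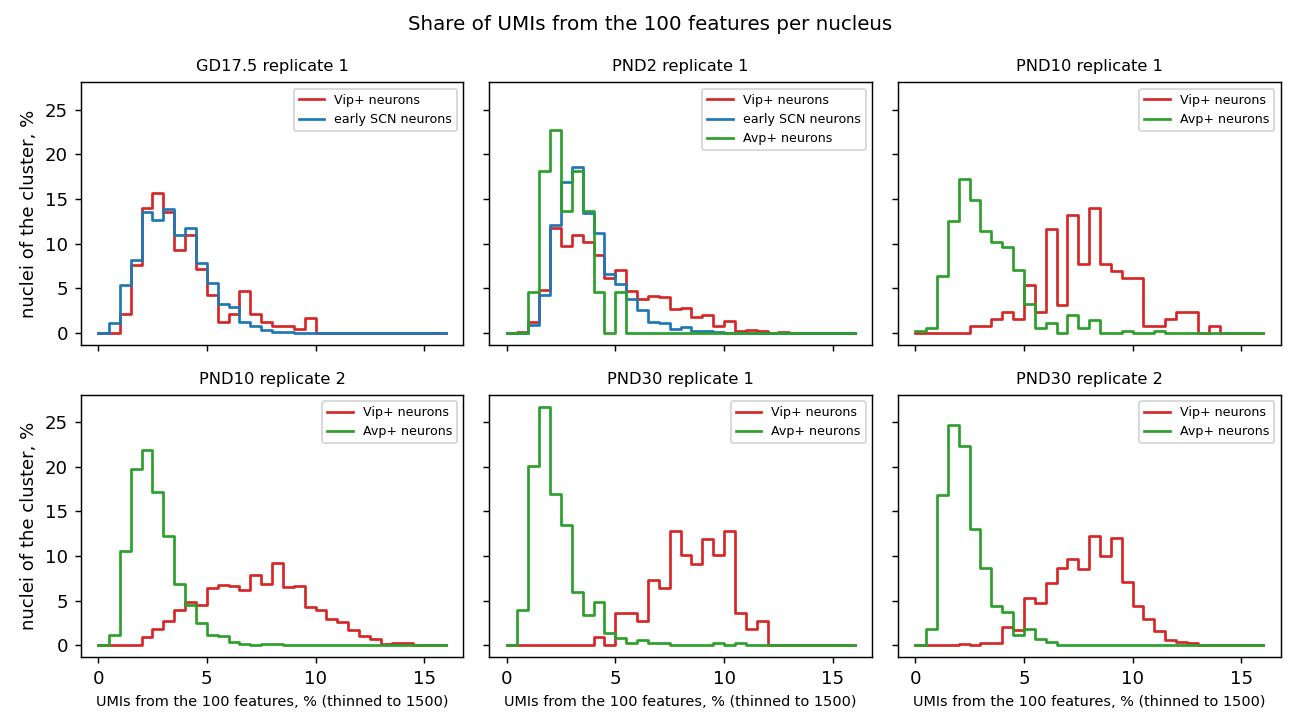
Distribution over nuclei of the percent of UMIs that came from the 100 features, with each nucleus thinned to 1500 UMIs (x axis), as the percent of the cluster's nuclei in bins of 0.5 (y axis), 1 panel per library. Vip+ and early SCN neurons overlap at GD17.5, the Vip+ curve has a longer upper tail at PND2 (upper quartile 5.87%), and Vip+ and Avp+ neurons lie mostly apart at PND10 and PND30.

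Within Vip+ neurons most of the features were lower before PND10 than after. Since the choice took features that were high at PND10 and PND30, a lower level at the stages it did not use is in part fixed by the choice. Against the mean of the 4 later libraries, 55 of the 100 were lower by 2-fold or more of CPM + 5 at GD17.5, beside 6.22% of the 4295 features with at least 50 CPM in either, and 2 were higher, beside 4.94%. At PND2, 39 were lower, beside 2.98%, and 1 was higher, beside 3.37%. The median fold of the set was 0.438 at GD17.5 and 0.583 at PND2, and that of the features tested was 1.07 and 0.992. In 79 features the GD17.5 value lay below all 4 later libraries (27.0% of the features tested), and 73 were lower at GD17.5 than at PND2 and lower at PND2 than in both PND10 libraries (16.4%). Within 1.5-fold of the later mean were 25 features at GD17.5, beside 75% of the features tested, and 41 at PND2, beside 81.9%.

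Rank 1, the feature with the largest ratio, stood in Vip+ neurons at 250 CPM before birth (GD17.5) and 323 CPM soon after it (PND2). It reached 1258 and 1157 CPM in the PND10 replicates and 1976 and 1932 CPM in those of PND30. It was not limited to Vip+ neurons before birth, with 157 CPM in early SCN neurons and 152 CPM in the summed astroglial and NG2 nuclei at GD17.5. After thinning, 20.3% of Vip+ nuclei held a UMI of rank 1 at GD17.5 and 27.1% at PND2, and 76.7%, 65.8%, 89.9% and 86.9% in the later libraries. Unthinned, 33.5% of Vip+ nuclei held one at GD17.5 (median depth 4588 UMIs). In NG2 nuclei of that library the share was 8.82% thinned and 30.1% unthinned (median depth 4883), and in the immature astroglial nuclei it was 21.7% and 43.8% (median depth 3895). The thinned share of Vip+ nuclei at GD17.5 was thus above that of NG2 nuclei and not above that of astroglial nuclei. The CPM of rank 1 was 250 in Vip+ neurons, 164 in the immature astroglial and 101 in the NG2 nuclei, and the part of RNA outside nuclei in these values was not tested.

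Rank 2 was near the counting floor before birth in Vip+, early and non-neuronal nuclei. It counted 5 UMIs in the Vip+ nuclei of GD17.5, or 3.93 CPM, and 95 UMIs, or 14.5 CPM, at PND2. Its later values were 154 and 174 CPM at PND10 and 328 and 412 CPM at PND30. Early SCN neurons held 1.42 CPM at GD17.5 and 2.48 at PND2. The ratio of CPM + 5 in Vip+ over early neurons was 2.61 at PND2, lowered by the added 5 CPM, which exceeds the early value.

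Rank 4 was lower in Vip+ than in early SCN neurons before birth. At GD17.5 it stood at 9.44 CPM in Vip+ neurons (12 UMIs, exact Poisson interval 4.88 to 16.49) and at 184 CPM in early SCN neurons (178 to 189), the lowest ratio of the set at 0.0766. At PND2 the clusters held 123 and 119 CPM, and Vip+ neurons stood at 563 and 551 CPM at PND10 and at 615 and 705 CPM at PND30. NG2 nuclei held 108 CPM of it at GD17.5, above the Vip+ value.

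Rank 5, by contrast, was near its later level throughout. Vip+ neurons held 77.9 CPM at GD17.5 and 72.5 CPM at PND2. They then held 106 and 90.0 CPM in the PND10 replicates and 78.1 and 75.7 CPM in the PND30 replicates. The GD17.5 value fell inside the range of the later libraries and the PND2 value just below it. Early SCN neurons held 6.89 CPM at GD17.5 and 9.64 at PND2. The ratios of CPM + 5 were 6.97 and 5.29, the latter the highest of the set at PND2. Immature astroglial and ependymal nuclei held more of rank 5 than early neurons, at 30.6 CPM at GD17.5 and 15.3 at PND2, and 59.6 CPM at PND10. In thinned nuclei it was found in 8.90% of Vip+ and 0.630% of early nuclei at GD17.5, in 0 of 102 NG2 nuclei (which allows a share of up to 2.94% of nuclei with a UMI at this thinned depth) and in 1.05% of astroglial nuclei. Unthinned, these shares were 19.1%, 3.26%, 4.85% and 8.59%.

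The other features of ranks 3 to 10 lay between these patterns. Rank 7 stood at 168 CPM at GD17.5 and 241 CPM at PND2, with ratios of CPM + 5 over early SCN neurons of 2.27 and 3.93. It reached 1012 and 875 CPM at PND10 and 1006 and 833 CPM at PND30. Rank 6 was higher at each later stage in Vip+ neurons, from 29.1 CPM at GD17.5 and 82.3 at PND2 to 250 and 213 CPM at PND10 and 505 and 514 CPM at PND30, while early neurons held 51.4 and 91.1 CPM. Ranks 3, 8, 9 and 10 were at 4.72 to 29.1 CPM in Vip+ neurons at GD17.5, below their values in each later library. Rank 9 rested on 1 library at PND30, with 42.9 CPM in replicate 1 and 108 in replicate 2. The libraries of rank 3 also disagreed, at 92.4 and 49.5 CPM at PND10 and 135 and 68.9 CPM at PND30.

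**Figure D2:**
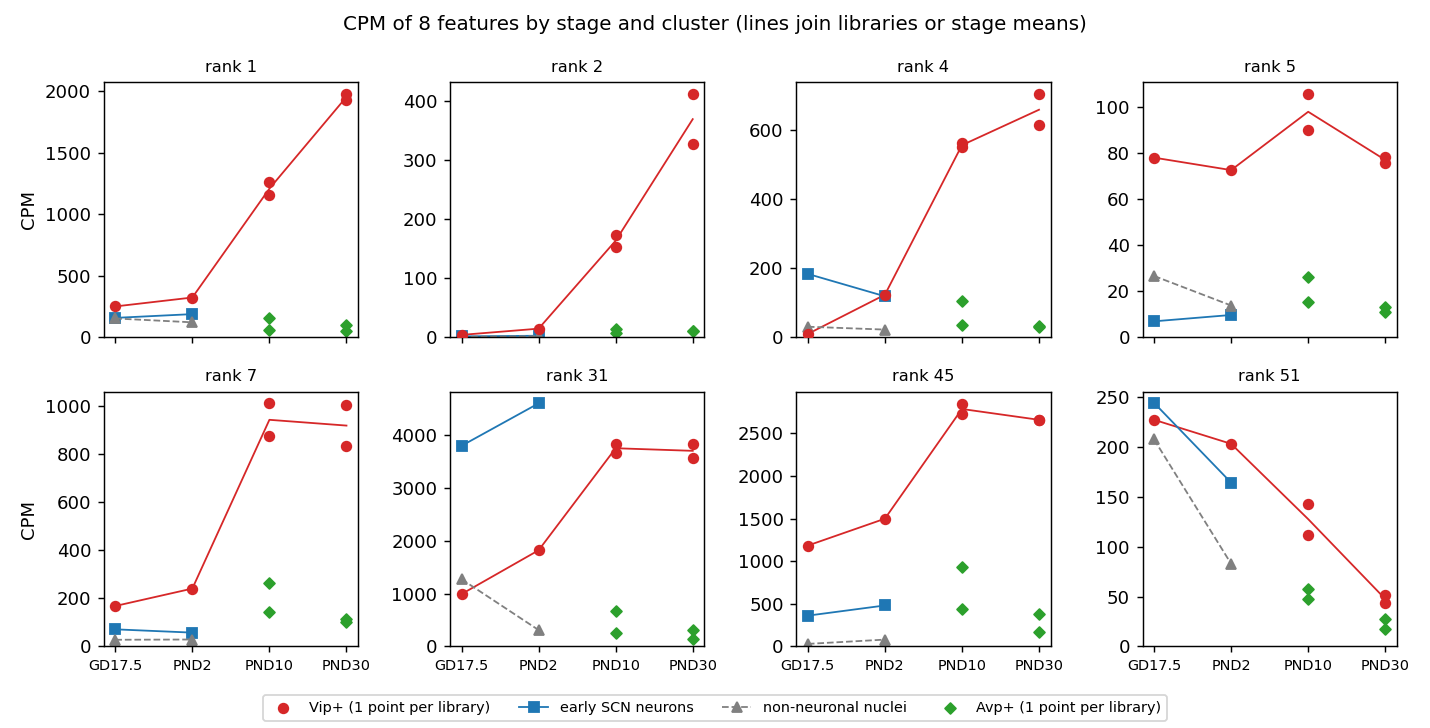
CPM (y axis, linear from 0, a separate scale per panel) by stage (x axis) of ranks 1, 2, 4, 5, 7, 31, 45 and 51 in Vip+ neurons (red), early SCN neurons (blue), summed astroglial and NG2 nuclei (grey) and Avp+ neurons (green), 1 point per library with lines through stage means. Rank 5 is nearly level across stages in Vip+ neurons, and rank 2 is near 0 before PND10. Ranks 4 and 31 are higher in early than in Vip+ neurons at GD17.5, and rank 51 is lower at each later stage.

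The 3 features of the highest level were present early and broadly in neurons. Rank 24, the most abundant, stood at 6163 CPM at GD17.5, 6396 at PND2, and 8529 to 9040 CPM in the 4 later libraries of Vip+ neurons, and early neurons held 4023 and 5000 CPM. Rank 79 went from 3197 CPM at GD17.5 and 3688 at PND2 to between 4185 and 5046 CPM later. Rank 61 differed more, with 1872 CPM at GD17.5 and 4031 at PND2 against 4992 to 6304 CPM later, and early neurons at GD17.5 held 3560 CPM. Each of these 3 features was thus below its later values at GD17.5, and rank 61 alone of them was higher in early than in Vip+ neurons there.

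Ranks 51, 55 and 38 ran against the set, as the features with the highest level at GD17.5 relative to later. Rank 51 went from 227 CPM at GD17.5 and 203 at PND2 to 112 and 143 CPM at PND10 and to 43.5 and 51.7 CPM at PND30, and early neurons held 244 and 164 CPM. Rank 55 went from 299.8 CPM at GD17.5 to 186 CPM at PND2, then 158 and 157 CPM in the PND10 replicates and 142 and 116 CPM in the PND30 replicates, with only 41.2 and 47.3 CPM in early neurons. Rank 38 was at 401 CPM at GD17.5, above the 242 to 328 CPM of the later libraries, and early neurons held 370 CPM.

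**Figure D3:**
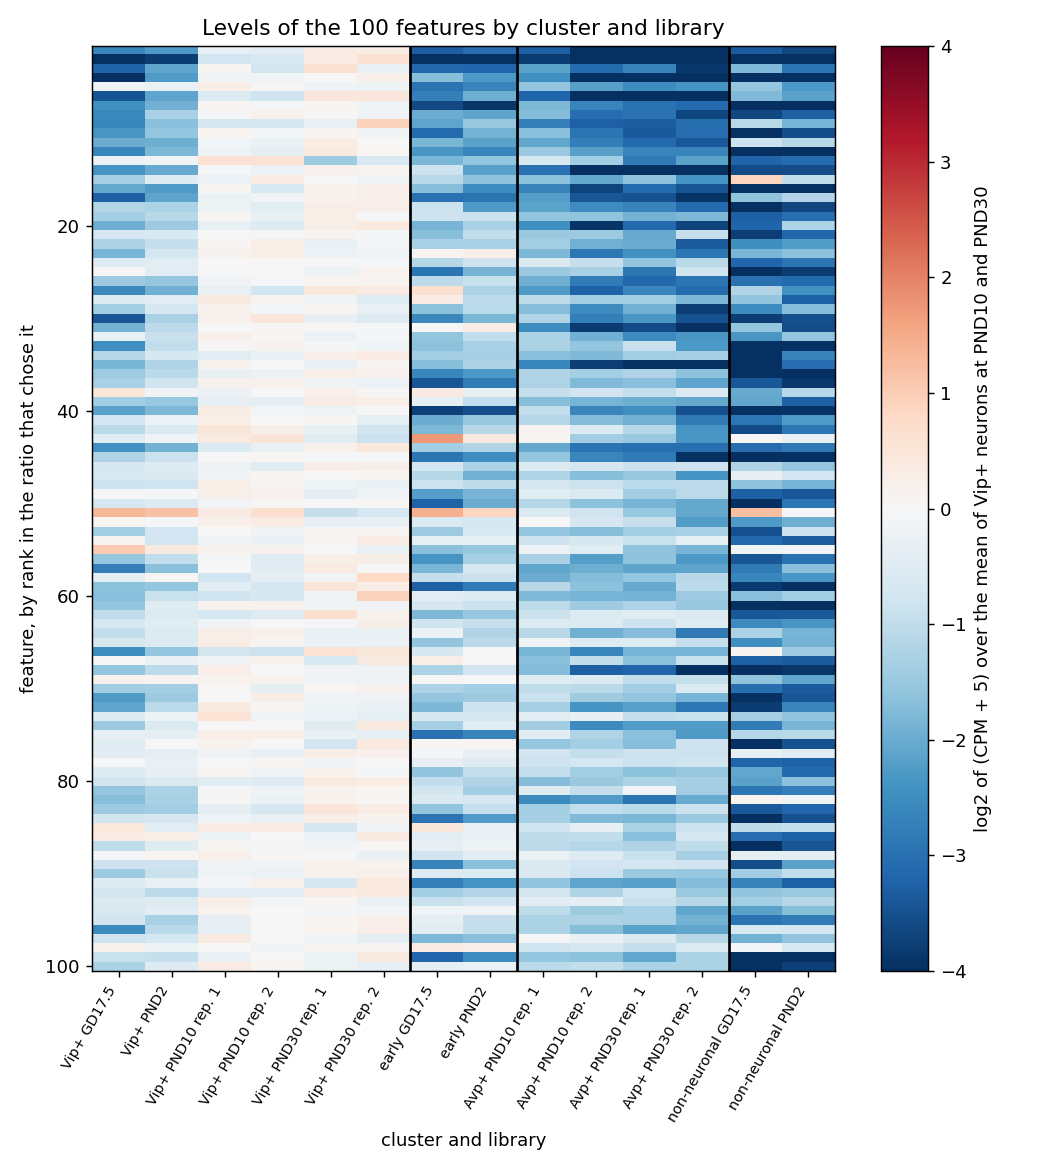
Level of each of the 100 features (rows, by rank) in each cluster and library (columns) as log2 of CPM + 5 over the mean of the 4 Vip+ libraries of PND10 and PND30. Most rows are blue in Vip+ neurons at GD17.5 and PND2 (55 and 39 of them by 2-fold or more), and rank 51 is red there.

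Vip+ nuclei were next set against the early SCN neurons of the same library, a comparison the choice of features did not use. The annotation was made on all stages together, so that these features could have helped to place a nucleus in either cluster, and each stage had 1 library. The ratios are therefore descriptions with no test. At GD17.5, 21 of the 100 features were higher by 2-fold or more in Vip+ neurons, beside 4.77% of the 4357 features with at least 50 CPM in either cluster, and 11 were lower, beside 7.16%. At PND2, 22 were higher, beside 3.82% of 4083, and 2 were lower, beside 5.63%. Of the set at 50 CPM or more in either cluster, 20 of 84 were higher and 10 lower at GD17.5. At PND2, 19 of 85 were higher and 2 lower. The median ratio of the set was 1.04 at GD17.5 and 1.26 at PND2, against 1.01 and 0.992 over the features tested, and 51 and 66 features were above 1, beside 51.6% and 48.6% of the features tested. Ratios ran from 0.0766 to 7.62 at GD17.5 and from 0.346 to 5.29 at PND2.

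The features ordered alike at the 2 stages. Across the 100 features the log2 ratios of GD17.5 and PND2 had a Pearson r of 0.783 and a Spearman rho of 0.750, given as a description, since features are not independent and both ratios rest on the same annotation. Higher by 2-fold at both stages were 17 features, with 4 more at GD17.5 and 5 more at PND2, and none was past 2-fold in opposite directions. By rank in the choice, 5 of ranks 1 to 25, 8 of ranks 26 to 50, 3 of ranks 51 to 75 and 5 of ranks 76 to 100 were higher at GD17.5. At PND2 these counts were 8, 8, 3 and 3, with median ratios of 1.28, 1.45, 1.23 and 1.06.

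The 17 features higher at both stages were ranks 5, 7, 13, 25, 36, 37, 40, 41, 45, 49, 50, 55, 59, 75, 84, 91 and 99. Their median ratio over early neurons, which follows from how they were picked, was 4.59 at GD17.5 and 3.09 at PND2. Their Vip+ level was already at a median of 0.598 and 0.680 of the later mean. Nms+ neurons were the next cluster for 13 of these 17 features, for 0 of the 11 lower features and for 18 of the other 72. Ranks 5, 75, 91, 37 and 7 had the largest ratios at PND2. Rank 75 held 105 CPM in Vip+ and 12.3 CPM in early neurons at GD17.5, and 100.3 and 17.1 CPM at PND2, though the astroglial and NG2 nuclei held 57.9 and 60.2 CPM. Rank 91 held 240 and 281 CPM in Vip+ against 47.4 and 61.9 CPM in early neurons. Rank 37, among the more abundant, held 1339 and 1908 CPM in Vip+ against 302 and 470 CPM in early neurons, and 2823 to 3748 CPM in the later Vip+ libraries.

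The 11 features lower in Vip+ than in early neurons at GD17.5 were ranks 4, 14, 23, 27, 31, 43, 44, 60, 66, 82 and 96. Of all features tested, 7.16% were lower by 2-fold or more there. The median ratio of the 11 was 0.262 at GD17.5, the ratio that picked them, and 0.649 at PND2. Within the Vip+ cluster they stood at a median of 0.193 of the later level at GD17.5 and 0.411 at PND2, while early neurons stood at 0.730 and 0.633 of that later Vip+ level. Rank 31 held 991 CPM in Vip+ and 3798 CPM in early neurons at GD17.5, and 1821 and 4602 CPM at PND2, so early neurons reached the 3574 to 3841 CPM of the later Vip+ libraries before Vip+ neurons did. Rank 66 held 21.2 CPM in Vip+ and 87.6 CPM in early neurons at GD17.5, and 44.7 and 139 CPM at PND2. Rank 57, the third lowest at PND2, held 94.5 CPM in Vip+ and 190 CPM in early neurons there.

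**Figure D4:**
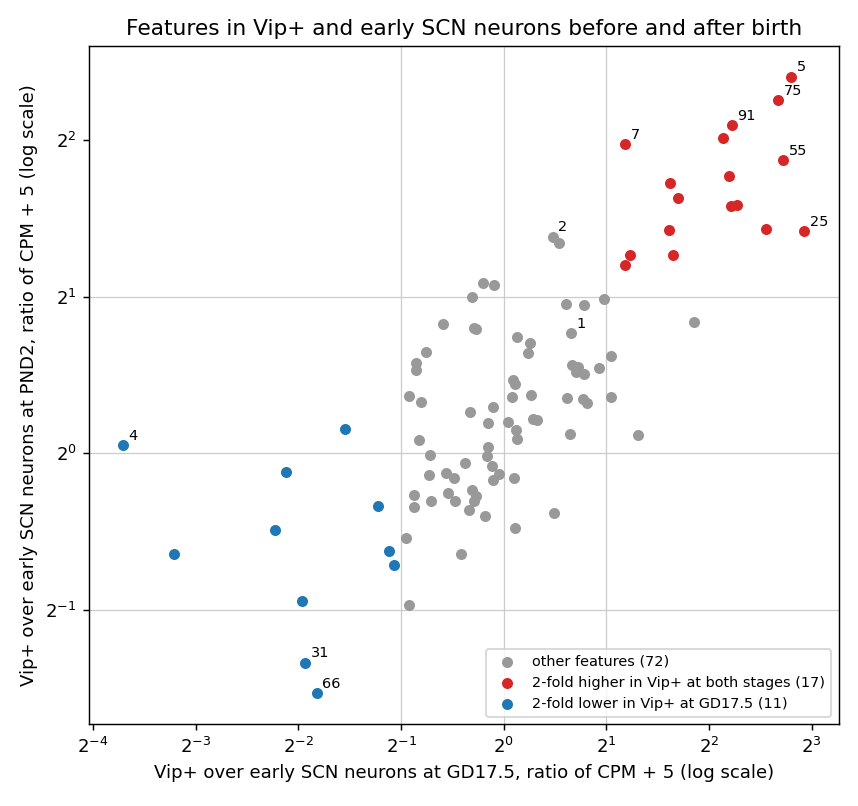
Ratio of CPM + 5 in Vip+ over early SCN neurons at GD17.5 (x axis) and PND2 (y axis), both log scales, 1 point per feature, with some ranks written beside their points. The 17 features 2-fold higher at both stages (red) and the 11 that were 2-fold lower at GD17.5 (blue) were picked by these ratios. The ratios at the 2 stages order alike (r = 0.783).

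At the stages before PND10, Vip+ neurons were the highest cluster of at least 20 nuclei for 50 of the features at GD17.5, with 3 other clusters to compare, beside 30.1% of the features at 50 CPM or more. At PND2 they were the highest for 46, with 6 other clusters, beside 7.64%. At 50 CPM or more in Vip+ neurons the set gave 43 of 71 at GD17.5 and 42 of 81 at PND2. Early SCN neurons in turn held more of the set than non-neuronal nuclei of the same library. The part of RNA outside nuclei in these values was not tested. Over the astroglial and NG2 nuclei summed, 64 features were higher by 2-fold in early neurons at GD17.5, beside 14.6% of features, and 7 were lower, beside 14.7%. At PND2 these counts were 56, beside 14.2%, and 5, beside 17.4%, and 52 features were higher at both stages. Of the set at 50 CPM or more in either group, 48 of 74 were higher and 4 lower at GD17.5. At PND2, 41 of 76 were higher and 5 lower. The choice took features that were higher in Vip+ neurons than in mature astrocytes and NG2 cells at PND10 and PND30. The excess over non-neuronal nuclei is therefore in part fixed by the choice. Over all 100 features the level in early neurons was at a median of 0.389 at GD17.5 and 0.437 at PND2 of the later Vip+ mean. Only 12 and 8 features reached that mean in early neurons.

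Between PND10 and PND30, with 2 libraries each, the features of Vip+ neurons could be tested. The choice pooled the 2 stages and did not compare them, but it used the same counts. It was also not neutral to stage, since Nms+ and Cck+ nuclei came almost wholly from PND30. Nms+ neurons were the next cluster for 31 features. The counts of the set below, also against Avp+ neurons, are thus not independent of the choice, and how far they depend on it was not tested. By edgeR's quasi-likelihood test with Benjamini-Hochberg adjustment, 36 of the 100 features passed an adjusted p of 0.05, 21 higher and 15 lower at PND30. Of all 12484 features tested 6.62% passed, 2.75% higher and 3.87% lower, and of the 3792 at 50 CPM or more in Vip+ neurons 11.1% passed, 4.46% higher and 6.65% lower. The median log2 change of the set was 0.02 and that of all features 0.01, so the set moved both ways. Without PND10 replicate 1 or replicate 2 none of the 100 passed edgeR, with 45 at an unadjusted p under 0.05 in each case, against 58 with all libraries (20.6% of features). Without PND30 replicate 1 or replicate 2, 34 and 36 passed.

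Rank 59 had the smallest p among those higher at PND30, with a log2 change of 0.92 (SE 0.10, adjusted p 0.000184 by edgeR). Rank 66, one of the features that were lower in Vip+ than in early neurons, rose from 81.7 and 74.2 CPM at PND10 to 207 and 194 CPM at PND30, a log2 change of 1.34. Rank 6 rose by 1.12 and rank 2 by 1.14 on this scale, and rank 1 by 0.66, with the PND30 libraries above the PND10 libraries in each. Rank 51 fell by 1.46 on the log2 scale. Without PND10 replicate 1 or replicate 2 the log2 changes of rank 66 were 1.38 and 1.26, those of rank 6 were 1.21 and 1.00, and those of rank 51 were -1.62 and -1.25, so the sizes stayed near those with all libraries. Rank 13 fell by 1.65, from 120.5 and 122.5 CPM to 26.8 and 49.1 CPM, the largest fall of the set. It was one of the 17 features already higher in Vip+ than in early neurons before PND10.

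The same change was then compared with that in Avp+ neurons of the same libraries. Vip+ neurons were above Avp+ neurons for all 100 features in each of the 4 libraries, which the choice largely fixes, with a median ratio of 2.41 and 2.93 at PND10 and 3.08 and 3.73 at PND30. In the interaction test 3 of the 100 features passed by edgeR, ranks 90, 55 and 12, all positive, beside 0.272% of 14691 features (0.102% positive, 0.17% negative). Of the features at 50 CPM or more in Vip+ neurons 0.633% passed, 0.343% positive and 0.29% negative. For ranks 90, 55 and 12 the signed log2 change was higher in Vip+ than in Avp+ neurons. The differences by edgeR were 1.14 (SE 0.17, adjusted p 0.0293), 1.11 (SE 0.17, adjusted p 0.0300) and 1.27 (SE 0.21, adjusted p 0.0378). In rank 12 Vip+ neurons went from 677 and 603 CPM to 1014 and 821 CPM while Avp+ neurons went from 277 and 170 CPM to 124 and 120 CPM. In rank 55 the Avp+ level went from 122 and 100.5 CPM to 43.7 and 35.7 CPM, and the Vip+ level from 158 and 157 CPM to 142 and 116 CPM. In rank 90 the Avp+ level went from 136 and 109 CPM to 68.8 and 67.4 CPM, and the Vip+ level from 182 and 172 CPM to 225 and 235 CPM. The PND30 libraries were thus below the PND10 libraries in Avp+ neurons for each of the 3, and above them in Vip+ neurons for ranks 12 and 90.

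Over the whole set the difference leaned the same way. It was above 0 for 81 of the 100 features, against 51.8% of all features tested and 47.3% of those at 50 CPM or more in Vip+ neurons, and the median was 0.42 on the log2 scale against 0.02. At an unadjusted p under 0.05 were 38 of the 100, beside 8.8% of features. In 53 features the Vip+ over Avp+ ratio was higher in both PND30 libraries than in both PND10 libraries, beside 27.3% of the features at 50 CPM or more, and in 6 it was lower in both, beside 16.5%. Both PND30 libraries lay below both PND10 libraries in Avp+ neurons for 44 features, beside 29.2% of the features at 50 CPM or more, and above for 4, beside 23.5%. In Vip+ neurons they lay above for 42, beside 29.7%, and below for 32, beside 25.3%. The annotation did not divide the neurons alike at the 2 stages. In replicate 2, Nms+ nuclei numbered 5 at PND10 and 657 at PND30, and Cck+ nuclei 20 and 1743. Whether the Avp+ cluster held the same kinds of cells at both stages was not tested. In PND10 replicate 1 Avp+ nuclei held more of the set than in replicate 2 (3.41% against 2.66% of UMIs), and without PND10 replicate 1 none of the 100 passed the interaction test by edgeR, 18 were at an unadjusted p under 0.05 and 72 were above 0. Without PND10 replicate 2, 5 passed, and without PND30 replicate 1 or replicate 2, 36 and 14 passed.

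**Figure D5:**
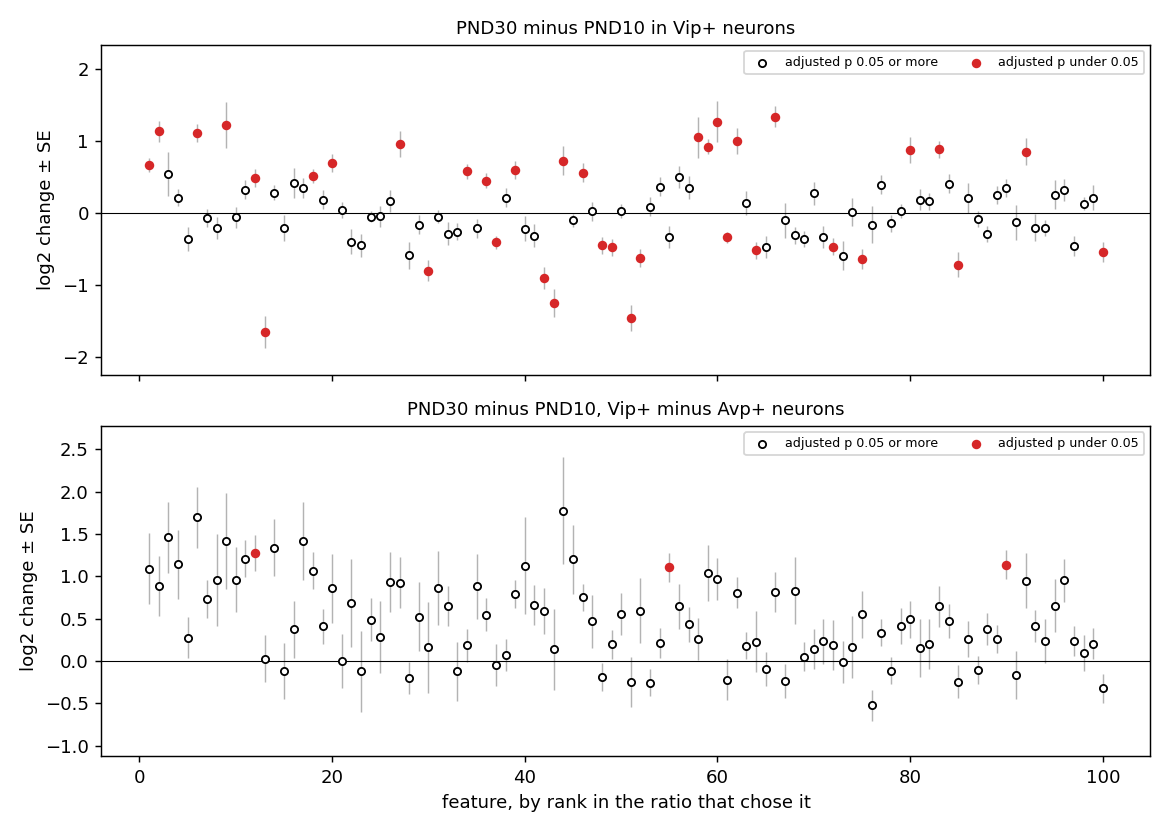
Log2 change from PND10 to PND30 with its SE for each of the 100 features (x axis, by rank) in Vip+ neurons (upper panel) and as Vip+ minus Avp+ neurons (lower panel), from edgeR on UMIs summed per library, 2 libraries per stage. Filled points passed an adjusted p of 0.05: 36 in the upper panel, on both sides of 0, and 3 in the lower, where 81 of the points lie above 0.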

How the data were processed

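Single-nucleus RNA was measured in 6 SCN libraries. The deposited matrices hold raw UMI counts of 32285 rows per library, which the authors made with Cell Ranger 5.0.1 on mm10, and a deposited annotation gives each nucleus its cluster, made by the authors with Seurat 4 over all stages after removal of doublets by a score. No further filter on nuclei was applied. Barcodes were matched to libraries within the stage that each annotation suffix marks, and 6 nuclei found in both or neither library of a stage were left out. The matrices used here carry no feature names, so features are given by rank and no sequence is shown.

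UMIs were summed per cluster and library and scaled to CPM, and ratios used a pseudocount of 5 CPM. Intervals are exact Poisson or Clopper-Pearson at 95% and cover counting error only, and the limit beside a count of 0 is 3 counts. For shares and values per nucleus, nuclei were thinned to 1500 UMIs and shallower ones left out. Clusters with fewer than 20 nuclei in a library were not compared. PND10 and PND30 sums were tested with edgeR 4.0.16 (R 4.3.3; TMM, filterByExpr, quasi-likelihood), the interaction with library as a block, and DESeq2 1.42.0 served as an alternative. On simulated data edgeR recovered 100% of 200 features changed by a log2 of 2. There were 7 false calls among 12484 features for the change in Vip+ neurons and 13 among 14691 for the interaction. The changed features were all above the median level, and the change was larger than any named here. No library effect beyond the fitted dispersion was simulated. The simulation therefore does not measure recovery or false calls at the sizes reported. GD17.5 and PND2 had 1 library each and no test.

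Features named are ranks 1 to 10, the 3 of highest CPM, the 3 lowest and 3 highest at GD17.5 against later, the 5 largest and 3 smallest ratios over early neurons at PND2, the 5 smallest p among calls of each test, and the 3 ranks on each side of the limit of the choice. Ranks 1 and 13 are also named for the change from PND10 to PND30, and rank 53 in the closing section, chosen after their values were seen, as were the classes of 17 and 11 features listed whole and the limit of 5% of UMIs. The features, lists and tests were chosen with earlier results of these data known. The alternatives tried were other pseudocounts, minimum CPM, folds, stages, thinning, tools and filters, equal numbers of nuclei, a replicate block and leaving out each library.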

Additional observations from a re-analysis of the deposited data

Results flagged for a closer look

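A difference between Vip+ and Avp+ neurons in the change from PND10 to PND30 passed edgeR's interaction test for 3 of the 100 features. The signed log2 change was higher in Vip+ than in Avp+ neurons by 1.27 for rank 12, 1.11 for rank 55 and 1.14 for rank 90. In Vip+ neurons alone the log2 changes were 0.49, -0.33 and 0.35. In Avp+ neurons the PND30 libraries lay below the PND10 libraries for each of the 3, so these differences are not larger changes in Vip+ neurons. Without PND10 replicate 1 these differences were 0.97, 0.95 and 0.99 with edgeR adjusted p of 0.342, 0.225 and 0.225. Without PND10 replicate 2 they were 1.55, 1.26 and 1.28 with edgeR adjusted p of 0.0574, 0.0737 and 0.0757. By DESeq2 rank 12 alone of the 3 passed (adjusted p 0.0376), with 0.186 for rank 55 and 0.131 for rank 90. With equal numbers of nuclei rank 55 did not pass edgeR (adjusted p 0.165). The direction was the same in each of these cases. Whether the Avp+ cluster held the same kinds of cells at PND10 and PND30 was not tested.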

How the results depend on the processing

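Leaving out single libraries moved the calls of the change from PND10 to PND30 most, from 826 to between 0 and 1151 features and, in the set, from 21 to between 0 and 20 higher and from 15 to between 0 and 17 lower. The 0 calls came without PND10 replicate 1 by edgeR, where 1673 features were at an unadjusted p under 0.05. For the interaction with Avp+ neurons these ranges were 1 to 283 features, against 40, and 0 to 36 of the set higher, against 3, with none lower. DESeq2 called 395 features for the change in Vip+ neurons, and 21 with 1 of the set higher for the interaction. No filter on low counts gave 357 and 33 of the set for the interaction, and equal numbers of nuclei gave 309 features, 11 of the set higher and 7 lower, for the change in Vip+ neurons. Deviations of same-numbered libraries of Vip+ neurons had a correlation of 0.0751 over 2 pairs, so the numbers were not taken to pair the samples. This value used Vip+ sums alone, so it cannot decide on a block for the difference between Vip+ and Avp+ neurons. The median Vip+ over Avp+ ratio of the set was higher in replicate 2 than in replicate 1 at both stages. It was 2.93 against 2.41 at PND10 and 3.73 against 3.08 at PND30. The replicate block gave 1390 features for the change in Vip+ neurons, and 406 with 38 of the set higher for the interaction.

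Of the 100 features, 62 were chosen again from PND10 alone and 65 from PND30 alone, and 33 under all 11 alternatives of the choice. At 1.5-fold, 34 and 25 features were higher and lower in Vip+ than early neurons at GD17.5, and 35 and 8 at PND2. At 4-fold these counts were 10 and 4, and 4 and 0. Lower in early than in non-neuronal nuclei at GD17.5 were 12 features at 1.5-fold, and against NG2 nuclei alone 4 at GD17.5 and 2 at PND2. Thinning gave a median fold of 0.544 at PND2 against later. The summed ratio of Vip+ over early neurons was 1.03 and 1.20 at GD17.5 and PND2 without rank 24, and 1.11 and 1.24 after thinning. The ratio of the clusters' median CPM over the features was 0.978, in the other direction, and 1.28. The median of the ratios per feature was 1.04 and 1.26. The cause of these differences was not tested.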

Other observations

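At PND10 the set took up 4.41% of UMIs in the unidentified neuronal nuclei and 1.07% in the immature astroglial and ependymal nuclei, clusters that the choice did not use, beside 2.89% in Avp+ neurons. Among 111 immature astroglial and ependymal nuclei 1 feature was 2-fold or more above Vip+ neurons, rank 53, with 528 CPM against 252 CPM. Among 43 unidentified neuronal nuclei there were 0 such features.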
